A study of Mus musculus with 6 samples.

Results

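Smooth muscle actin and its contractile partners were followed in mouse lenses with and without Tdrd7, through 10 genes chosen by symbol. They were the actin gene Acta2, the actin-binding proteins Tagln, Cnn1 and Cald1, the tropomyosins Tpm1 and Tpm2, the myosin light chain Myl9, and Tgfb2, Tgfbi and Fn1 of the TGF-beta pathway and matrix. The platform annotation gave 28 of the 45281 probes on the array to these genes alone, and all 28 are accounted for here. RNA came from lenses taken at postnatal day 30 and was hybridised to 6 Illumina bead arrays, on which the brightness of a probe reports its transcript. There were 3 samples from Tdrd7 null mice and 3 from Tdrd7 heterozygous mice, all of a mixed strain of C57BL/6J and C3A.Blia. The heterozygous mice carry 1 intact copy of Tdrd7, so no wild-type lens enters the comparison, and the labels give neither the nature of the Tdrd7 allele nor how many lenses or animals were pooled. Arrays were numbered after the raw table, null arrays 4 to 6 and heterozygous arrays 1 to 3. Loss of Tdrd7, which encodes a tudor domain protein of RNA granules, is known to cause cataract, and the comparison sets lenses without it beside lenses with 1 copy.

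Lens epithelial cells form a single sheet under the anterior capsule and turn into fibre cells at the equator. In injury and in several forms of cataract they can undergo an epithelial to mesenchymal change, in which they build stress fibres and lay down matrix. TGF-beta is the best known trigger of this change, and alpha smooth muscle actin, the product of Acta2, is its most used marker. In smooth muscle, Acta2, Tagln and Cnn1 are switched on together by serum response factor, which binds a motif called the CArG box.

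The promoters of Acta2, Myl9 and Cnn1 are shown because these genes carried the main contrasts among the contractile members. Acta2 had 4 probes detected on every array, Myl9 had the widest spread between arrays, and the Cnn1 probe was not detected on any array. Each sequence is the 250 bases before the RefSeq gene start in GRCm38.p6, at chr19:34255374-34255623 on the minus strand for Acta2, chr2:156775214-156775463 on the plus strand for Myl9 and chr9:22099003-22099252 on the plus strand for Cnn1. Capitals mark CArG boxes and runs that are 1 letter off a CArG box.
Acta2: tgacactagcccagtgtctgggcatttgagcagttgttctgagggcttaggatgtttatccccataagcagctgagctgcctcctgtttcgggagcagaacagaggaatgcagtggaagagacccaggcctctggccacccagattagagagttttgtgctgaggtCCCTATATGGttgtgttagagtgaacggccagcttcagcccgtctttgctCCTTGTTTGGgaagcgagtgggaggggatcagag
Myl9: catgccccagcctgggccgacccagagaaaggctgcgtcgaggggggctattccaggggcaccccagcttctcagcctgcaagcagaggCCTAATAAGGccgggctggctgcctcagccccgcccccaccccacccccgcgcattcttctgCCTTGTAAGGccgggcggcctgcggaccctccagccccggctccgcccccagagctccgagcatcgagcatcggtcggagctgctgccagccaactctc
Cnn1: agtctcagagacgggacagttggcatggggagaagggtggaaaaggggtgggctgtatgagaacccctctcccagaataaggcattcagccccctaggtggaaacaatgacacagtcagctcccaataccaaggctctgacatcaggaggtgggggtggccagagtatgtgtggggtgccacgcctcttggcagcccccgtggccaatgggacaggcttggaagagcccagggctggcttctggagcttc

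The CArG box reads the same on both strands, so both were searched together. The Acta2 window held CCCTATATGG, starting 84 bases before the gene start, and CCTTGTTTGG, starting 34 bases before it, each 1 letter off a full box. The Myl9 window held the full box CCTAATAAGG, starting 161 bases before the gene start, and CCTTGTAAGG, 1 letter off. A match of letters is a description, not a binding site. RefSeq windows were at hand for 8 of the 10 genes, with 9 windows in all because Cald1 has 2 starts, and not for Tagln and Fn1. A full box was found in 1 of the 9 windows, against 1.47% of all 32851 promoter windows of the same length. A box at most 1 letter off was found in 4 of the 9 windows (of Acta2, Cald1, Tpm1 and Myl9), against 18.6% of all windows.

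Lens transcripts were present on every array, and so were transcripts that mark other eye tissues. Of 7 measured photoreceptor markers 5 to 7 were detected per array, and of 10 iris, ciliary body and pigment cell markers 4 to 6. All 7 photoreceptor markers were higher in null, and 0 passed an adjusted p of 0.05 in limma. The share of such tissue in the samples was not tested. All 9 measured fibre cell and crystallin markers were detected on all 6 arrays, and Tdrd7 was at 10.11 ± 0.43 on the log2 scale in null and 13.99 ± 0.22 in heterozygous lenses (SD, n = 3 each, limma adjusted p = 0.00139). The number of probes detected ran from 14826 to 16204 on null arrays and from 12655 to 15640 on heterozygous arrays. Null array 5 and heterozygous array 2 stood apart, with best correlations to another array of 0.975 and 0.967, against at least 0.987 for the others. Values without these arrays stand beside the results of the members that turned on them. Separate animals behind the samples of a group are not named in the labels, and the p-values therefore cover the spread between samples only, part of which may be technical. Of 14902 probes tested in limma, 26 passed an adjusted p of 0.05, or 0.174%, with 7 of them (0.047%) higher and 19 (0.127%) lower in null.

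Of the 28 member probes, 6 were detected on all 6 arrays, 12 on none, and 12 met the filter for testing, a detection p below 0.05 on no fewer than 3 arrays. The 12 tested probes covered 6 genes, Acta2, Tpm1, Tpm2, Cald1, Myl9 and Tgfb2. The other 4 genes, Tagln, Cnn1, Tgfbi and Fn1, had no probe that met it. Of the 12 tested probes, 0 passed an adjusted p of 0.05 (limma, lowest adjusted p 0.373), with 2 at an unadjusted p under 0.05, both of Acta2 and both higher in null. That is 16.7% of the tested member probes, beside 4.27% of all probes tested that were higher in null at that p. None was lower at that p, beside 4.44% of all probes. Of the 12, 10 were higher and 2 lower in null lenses, with a median log2 difference of 0.53 beside 0.01 over all probes tested. That median rested largely on heterozygous array 2. It was 0.23, with 8 higher and 4 lower, without that array, and 0.16, with 7 higher and 5 lower, without null array 5 as well. On the series matrix values it was 0.18. Since 4 of the 12 probes report the same gene, Acta2, these counts do not come from independent genes.

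**Figure D1:**
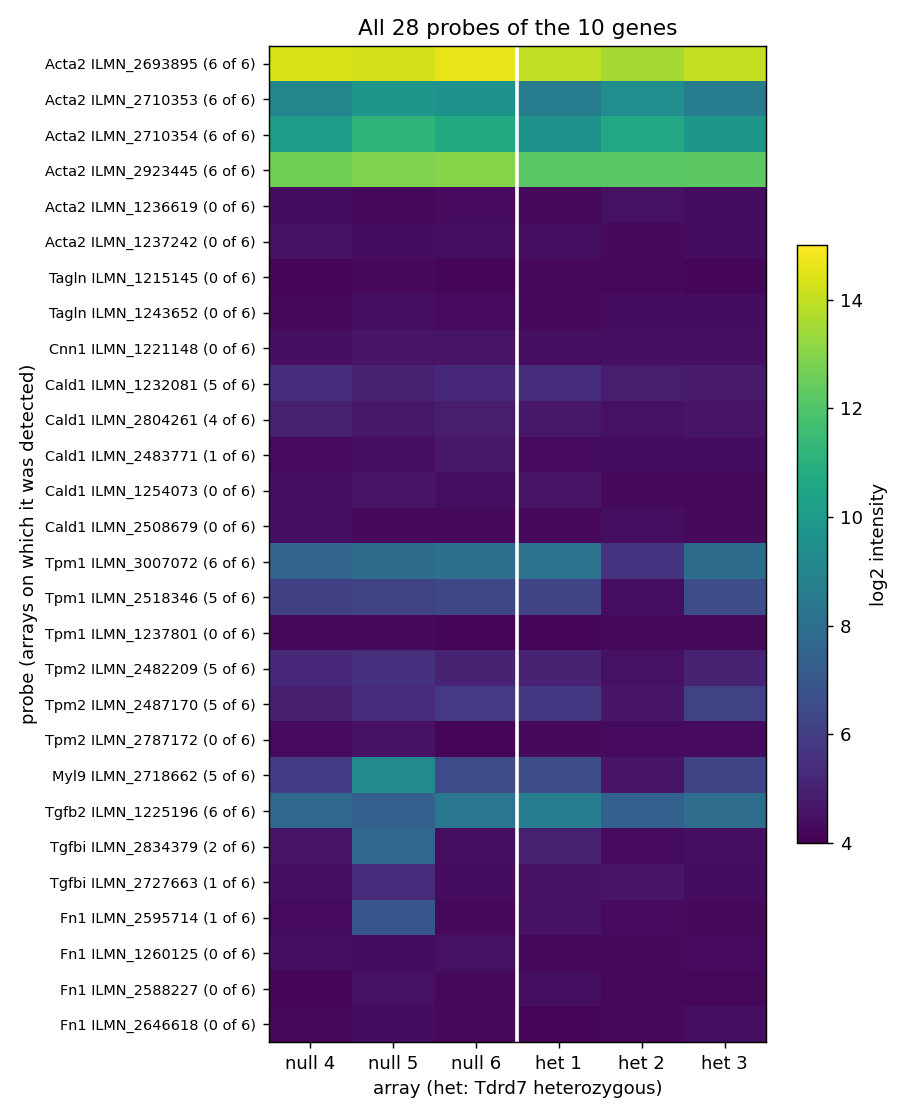
Log2 intensity (colour) of all 28 probes of the 10 genes (rows) on null arrays 4 to 6 and heterozygous arrays 1 to 3 (columns), with the number of arrays on which each probe was detected. Acta2 has 4 bright rows on all arrays, Tagln and Cnn1 have none, and Myl9, Tgfbi and Fn1 stand out on null array 5.

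Acta2, the smooth muscle actin, was higher in null lenses on each of its 4 detected probes, by 0.60 to 0.63 on the log2 scale or about 1.5-fold, but no probe passed the test. Probe ILMN_2923445 was at 12.65, 12.86 and 12.99 on null arrays 4, 5 and 6 and at 12.16, 12.20 and 12.24 on heterozygous arrays 1, 2 and 3. All 3 null values lay above all 3 heterozygous values, with a gap of 0.41 between the groups, which was wider than the whole range within either. The difference was 0.63 ± 0.20 (SE), a fold of 1.55 with a 95% interval from 1.13 to 2.12 (limma, adjusted p = 0.373). The exact two-sided permutation test gave p = 0.1, the smallest that 3 against 3 allows.

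Probe ILMN_2693895 of Acta2 was at 14.34, 14.31 and 14.62 on null arrays 4, 5 and 6 and at 13.94, 13.52 and 14.02 on heterozygous arrays 1, 2 and 3. Here too the groups did not overlap, and heterozygous array 2 was the lowest. The difference was 0.60 ± 0.22 (limma, adjusted p = 0.489, exact permutation p = 0.1). This probe reached 24.4% to 59.3% of the brightest signal of its array, and saturation was not tested. On the series matrix values its difference was 0.12 and that of ILMN_2923445 was 0.26, both still higher in null.

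The other 2 detected probes of Acta2 gave the same size of difference with overlap between the groups. Probe ILMN_2710354 was at 10.09, 11.16 and 10.69 in null lenses and at 9.66, 10.64 and 9.82 in heterozygous lenses. Probe ILMN_2710353 was at 9.05, 9.79 and 9.62 in null lenses and at 8.62, 9.40 and 8.65 in heterozygous lenses. On both, heterozygous array 2 was high and null array 4 was the lowest of its group. The differences were 0.61 ± 0.34 and 0.60 ± 0.29 (limma, adjusted p = 0.670 and 0.611). These 2 probes followed each other over the 6 arrays (r = 0.98), and ILMN_2693895 followed them less closely (r = 0.25 and 0.35), as a description of 6 points that share arrays. The 2 remaining Acta2 probes, ILMN_1236619 and ILMN_1237242, were detected on 0 of 6 arrays, with detection p from 0.145 to 0.866.

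Averaged over the 4 detected probes, Acta2 was at 11.54, 12.03 and 11.98 on null arrays 4, 5 and 6 and at 11.09, 11.44 and 11.18 on heterozygous arrays 1, 2 and 3. The groups did not overlap, and null array 4 lay closest to the heterozygous arrays. The mean was 11.85 ± 0.27 in null and 11.24 ± 0.18 in heterozygous lenses (SD, n = 3 each), a fold of 1.53 (limma over 8944 genes, adjusted p = 0.407, exact permutation p = 0.1). Without heterozygous array 2 and null array 5 the 4 probes differed by 0.49, 0.61, 0.65 and 0.71. Over 16 alternatives, some in processing and some with arrays left out, the 4 probes gave 64 values, of which 64 were higher in null and 0 passed. Many of these values could not have turned. A change of filter or of variance model keeps the main difference, and the replicate block keeps that of the series matrix values. On ILMN_2693895 and ILMN_2923445, whose groups did not overlap, leaving out arrays could do little to turn the sign. Without null array 5 the difference of ILMN_2710354 was 0.36, and after scaling arrays to 1 median those of ILMN_2710354 and ILMN_2710353 were 0.95 and 1.00, in a setting that moved the median of all probes to 0.28.

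**Figure D2:**
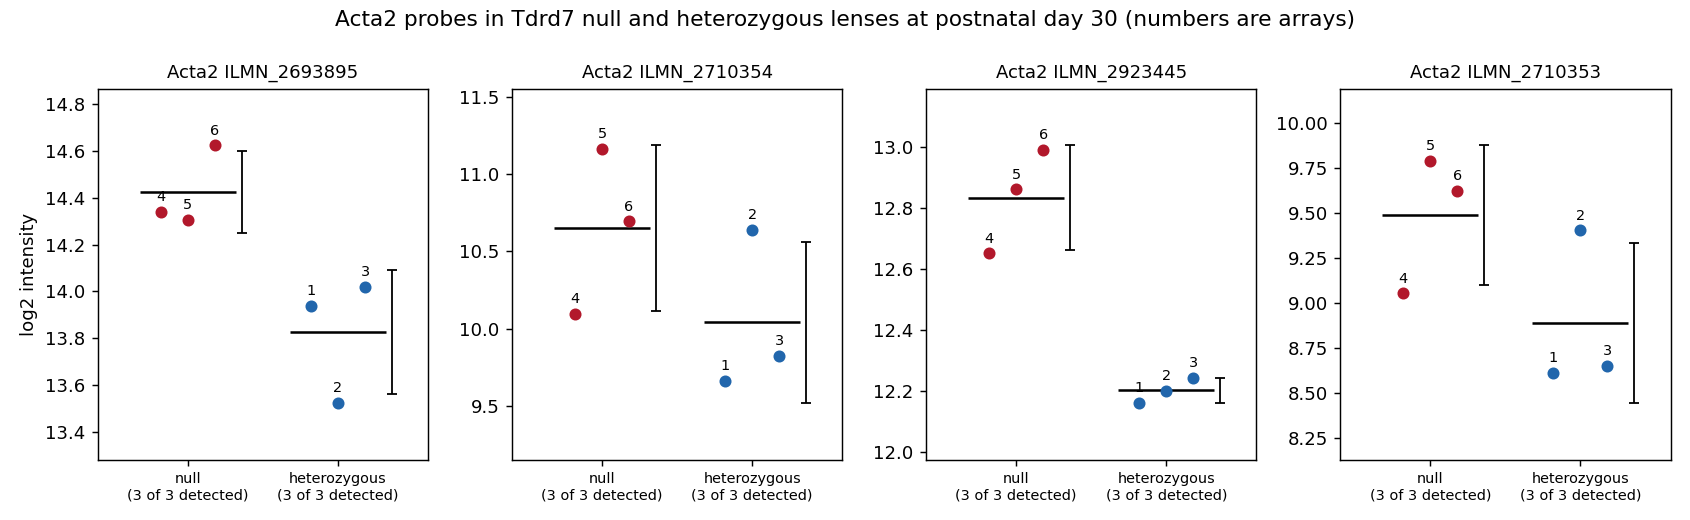
Log2 intensity of the 4 detected Acta2 probes in null lenses (left) and heterozygous lenses (right), 1 point per array with its number, the group mean as a line and the SD as a bar. The groups are apart on ILMN_2693895 and ILMN_2923445 and overlap on the other 2, where heterozygous array 2 is high.

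Actins are close in sequence, and probe sequences were not used here, so the share of another actin in the Acta2 signal was not tested. Actb, the cytoplasmic actin of all cells, had 5 tested probes. Its probe ILMN_2698799 was at 13.22, 13.02 and 13.70 in null and 13.02, 12.56 and 13.12 in heterozygous lenses, and followed ILMN_2693895 of Acta2 over the arrays (r = 0.91, 6 arrays), the highest of the 5 Actb probes. The other 4 correlated with it at 0.66, 0.24, -0.30 and -0.32. The Actb difference on that probe was 0.41 ± 0.26 (limma, adjusted p = 0.718). The striated muscle actins Acta1 and Actc1 were detected on no array. Actg2, the smooth muscle gamma actin, was detected on null array 5 alone, at 5.64 beside 4.26 to 4.29 on the other arrays.

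Tagln and Cnn1, which mark differentiated smooth muscle together with Acta2, were not detected. The 2 Tagln probes ran from 4.18 to 4.46 in null lenses and from 4.16 to 4.38 in heterozygous lenses, with detection p no lower than 0.204. Cnn1 was at 4.45, 4.59 and 4.60 in null lenses and at 4.41, 4.46 and 4.46 in heterozygous lenses, with detection p from 0.0737 to 0.327. These values lay below the lowest signal of any detected probe, which ran from 4.63 to 4.96 over the arrays. Neither gene was detected in either group, so no fold is given. A lack of detection on these probes does not show that the transcript is absent. Of 11 measured markers of vascular smooth muscle and pericytes, 8 were detected on at least 1 array, among them the pericyte receptor Pdgfrb on all 6. The smooth muscle myosin Myh11, Lmod1 and the pericyte marker Rgs5 were detected on none. Of the 6 tested markers 4 were higher and 2 lower in null, and 0 passed in limma, with 0 at an unadjusted p under 0.05. The summed level of that list was 314 to 359 in null and 289 to 340 in heterozygous lenses, on the linear intensity scale. Undetected genes add background values to that sum, and 2 to 7 of the 11 were detected per array. Of 10 measured iris, ciliary body and pigment cell markers 5 were tested, 1 higher and 4 lower in null, and 0 passed. At an unadjusted p under 0.05 in limma was 1, lower in null, beside 4.44% of all probes. Their summed level was 956 on heterozygous array 2 and 292 to 473 on the other arrays. The share of iris or ciliary body in the Acta2 values was not tested.

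Cald1, the caldesmon that ties actin to myosin and calmodulin, was near the limit of detection. Its probe ILMN_1232081 was at 5.43, 5.01 and 5.23 in null lenses and at 5.43, 4.88 and 4.78 in heterozygous lenses. The groups overlapped, with a difference of 0.19 ± 0.24 (limma, adjusted p = 0.879) that was 0.13 without heterozygous array 2. Its probe ILMN_2804261 was at 4.97, 4.71 and 4.88 in null and at 4.70, 4.51 and 4.56 in heterozygous lenses. The groups were apart by 0.0019 on that probe, which was detected on 3 null arrays and 1 heterozygous array and so met the filter only through the null group. The size of the difference was 0.26 ± 0.20 (limma, adjusted p = 0.777). Of the 3 other Cald1 probes, 2 were detected on no array and 1 on null array 6 alone.

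The tropomyosins lie along the actin filament and steady it. Tpm1 was at 7.59, 7.88 and 8.08 on null arrays 4, 5 and 6 and at 8.10, 5.64 and 7.88 on heterozygous arrays 1, 2 and 3 with probe ILMN_3007072. Heterozygous array 2 was more than 2 log2 units below the other heterozygous arrays, which themselves lay within the range of the null arrays or just above it. The second probe, ILMN_2518346, showed the same pattern, with 6.08, 6.15 and 6.39 in null and 6.24, 4.41 and 6.60 in heterozygous lenses. The differences were 0.64 ± 0.56 and 0.46 ± 0.49 (limma, adjusted p = 0.809 and 0.851), with 95% intervals from -0.62 to 1.90 and from -0.64 to 1.56. Without heterozygous array 2 they turned to -0.15 and -0.22. The third Tpm1 probe was detected on no array.

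Tpm2 was dim, and its 2 tested probes pointed in opposite directions. Probe ILMN_2487170 was at 4.90, 5.29 and 5.83 in null lenses and at 5.77, 4.67 and 6.15 in heterozygous lenses, a difference of -0.19 ± 0.39 (limma, adjusted p = 0.935). It was -0.65 without heterozygous array 2, 0.13 without heterozygous array 3 and 0.03 without null array 4. Probe ILMN_2482209 was at 5.26, 5.55 and 5.10 in null lenses and at 5.10, 4.51 and 5.10 in heterozygous lenses. The groups were apart by 0.0054 and their means by 0.40 ± 0.24 (limma, adjusted p = 0.706). Leaving out heterozygous array 2 gave 0.22, leaving out null array 5 gave 0.26, and 0.09 was left without both. The third probe was not detected. Tpm2 lies on chromosome 4 as Tdrd7 does, with 43 protein-coding genes between them in the RefSeq annotation of GRCm38.p6. The bearing of that linkage on its values was not tested.

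**Figure D3:**
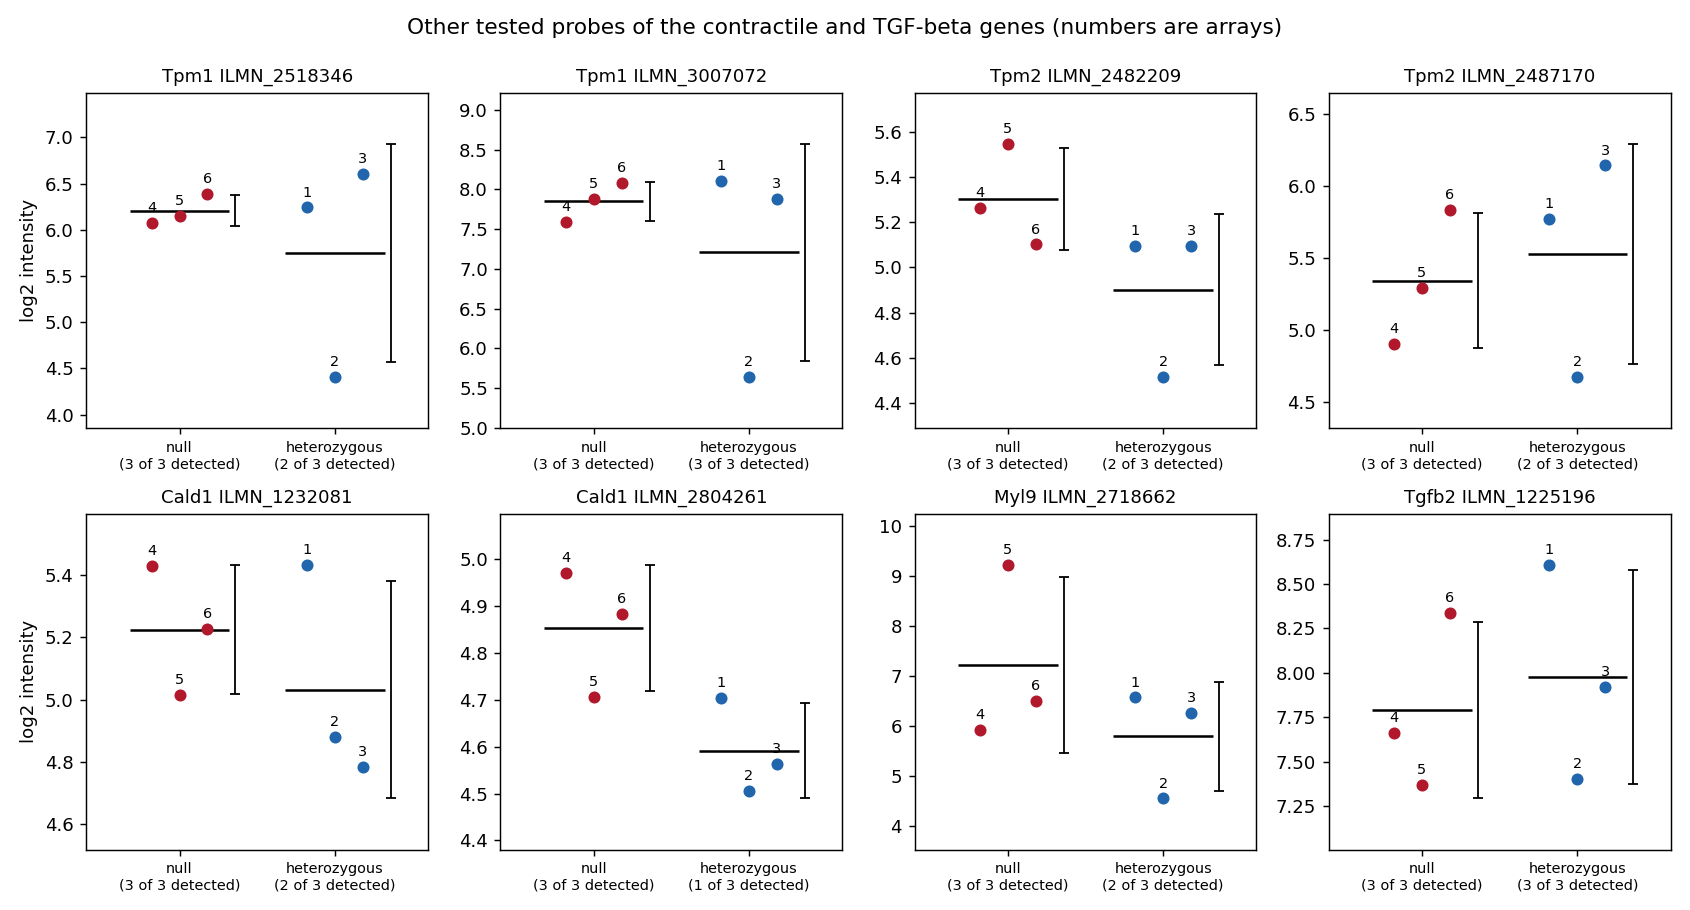
Log2 intensity of the 8 tested probes of Tpm1, Tpm2, Cald1, Myl9 and Tgfb2 in null lenses (left) and heterozygous lenses (right), 1 point per array with its number, the group mean as a line and the SD as a bar. Heterozygous array 2 is the lowest array for both Tpm1 probes and Myl9, and null array 5 is the highest for Myl9.

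Myl9 encodes the regulatory light chain that drives contraction of non-muscle and smooth muscle myosin. It was at 5.92, 9.22 and 6.51 on null arrays 4, 5 and 6 and at 6.58, 4.56 and 6.26 on heterozygous arrays 1, 2 and 3. The high mean of the null group came from array 5 and the low mean of the heterozygous group from array 2, where the probe was not detected. The other 4 arrays lay between 5.92 and 6.58. At 1.42 ± 0.81 the difference missed the threshold (limma, adjusted p = 0.677), and its 95% interval ran from -0.40 to 3.23. It was 0.39 without null array 5, 0.80 without heterozygous array 2 and -0.21 without both.

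Lens epithelium markers moved with Tpm1 and Myl9 on heterozygous array 2. Relative to the heterozygous group, their mean was 0.33, -0.34 and 0.56 on null arrays 4, 5 and 6. On heterozygous arrays 1, 2 and 3 it was 0.77, -1.31 and 0.55, lowest on array 2. All 10 markers were detected on at least 1 array, and the summed level of the list was 13063 to 18488 in null lenses and 11469 to 21842.5 in heterozygous lenses. The gap junction gene Gja1, a marker of the epithelium, was at 10.72, 7.87 and 11.09 in null and 11.67, 6.70 and 11.33 in heterozygous lenses. In whole-lens RNA fewer cells of a type and less RNA per cell cannot be told apart, and the part of the epithelium in these differences was not tested.

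Tgfb2, a TGF-beta ligand made in the eye, was at 7.66, 7.37 and 8.34 in null lenses and at 8.61, 7.40 and 7.92 in heterozygous lenses. The groups overlapped, and their means were apart by -0.19 ± 0.35 (limma, adjusted p = 0.926). The 95% interval ran from 0.51-fold to 1.52-fold. The sign turned without heterozygous array 1 (0.13) and without null array 5 (0.02), and the difference was -0.48 without heterozygous array 2.

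Tgfbi and Fn1, matrix proteins that TGF-beta is known to induce, were near background except on null array 5. Tgfbi was at 4.63, 7.63 and 4.41 on null arrays 4, 5 and 6 and at 4.97, 4.34 and 4.43 on heterozygous arrays 1, 2 and 3 with probe ILMN_2834379. It was detected on null array 5 and heterozygous array 1. Its second probe gave 5.41 on null array 5 and no more than 4.61 on the other arrays. Fn1, which encodes fibronectin, was at 4.33, 6.89 and 4.30 in null lenses and at 4.53, 4.33 and 4.29 in heterozygous lenses with probe ILMN_2595714. That probe was detected on null array 5 alone, and over the 3 null arrays its mean was at least 1.30-fold higher, a bound set by this array. The other 3 Fn1 probes were detected on no array and ran from 4.19 to 4.50. None of these 6 probes met the filter, and with no filter their adjusted p ran from 0.844 to 0.997 (limma).

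Leucocyte and macrophage markers moved with Myl9, Tgfbi and Fn1 on null array 5. Relative to the heterozygous group, the mean of the 10 tested markers was 1.13, 3.78 and 2.11 on null arrays 4, 5 and 6. It was 0.04, 0.03 and -0.08 on heterozygous arrays 1, 2 and 3. Of these 10, 1 passed in limma, beside 0.047% of all probes that passed and were higher in null, and 8 were higher in null at an unadjusted p under 0.05, beside 4.27%. Of 15 measured markers, 10 to 13 were detected on null arrays and 2 to 6 on heterozygous arrays, with Ptprc and Itgam on none. Markers could thus meet the filter through the null group, in which they were high. For that reason nothing is read from the counts of tested markers against the shares of all probes. Their summed level was 840 to 8726 in null and 353 to 387 in heterozygous lenses, with the background values of undetected markers included. Tgfbi and Fn1 were not detected on null array 6, where the leucocyte mean was 2.11 and the summed level 2045, beside 8726 on null array 5. The part of leucocytes in the Tgfbi, Fn1 and Myl9 values was not tested.

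**Figure D4:**
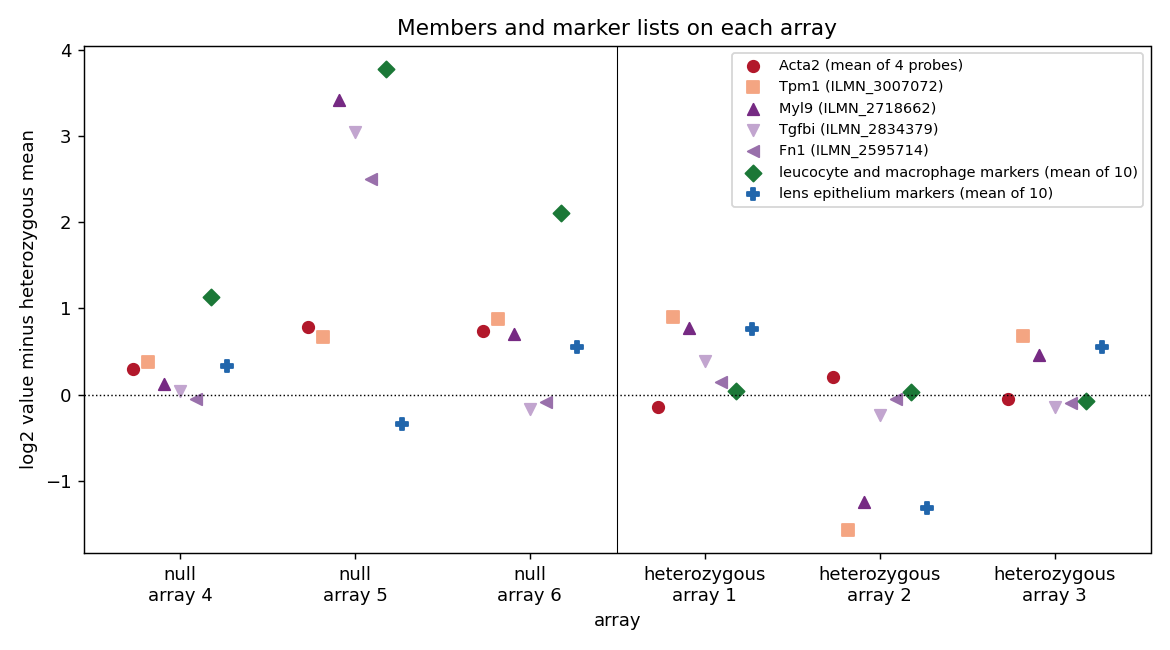
Log2 value minus the heterozygous mean (vertical axis) on each array, null arrays first, for Acta2, Tpm1, Myl9, Tgfbi and Fn1 and for the mean of 10 leucocyte and 10 lens epithelium markers. Myl9, Tgfbi, Fn1 and the leucocyte markers peak on null array 5, and Tpm1, Myl9 and the epithelium markers are lowest on heterozygous array 2, where the mean of the 4 Acta2 probes is not, although its probe ILMN_2693895 is.

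Groups that did not overlap were counted too. Null values lay above all heterozygous values on 4 of the 12 tested member probes, and below them on 0, where over all probes tested the shares were 7.43% above and 7.86% below. Nothing is read from these counts against the shares, since the Cald1 probe among the 4 met the filter only through the group in which it was high. Of the other 3, 2 were of Acta2, and that of Tpm2 was apart by 0.0054.

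**Figure D5:**
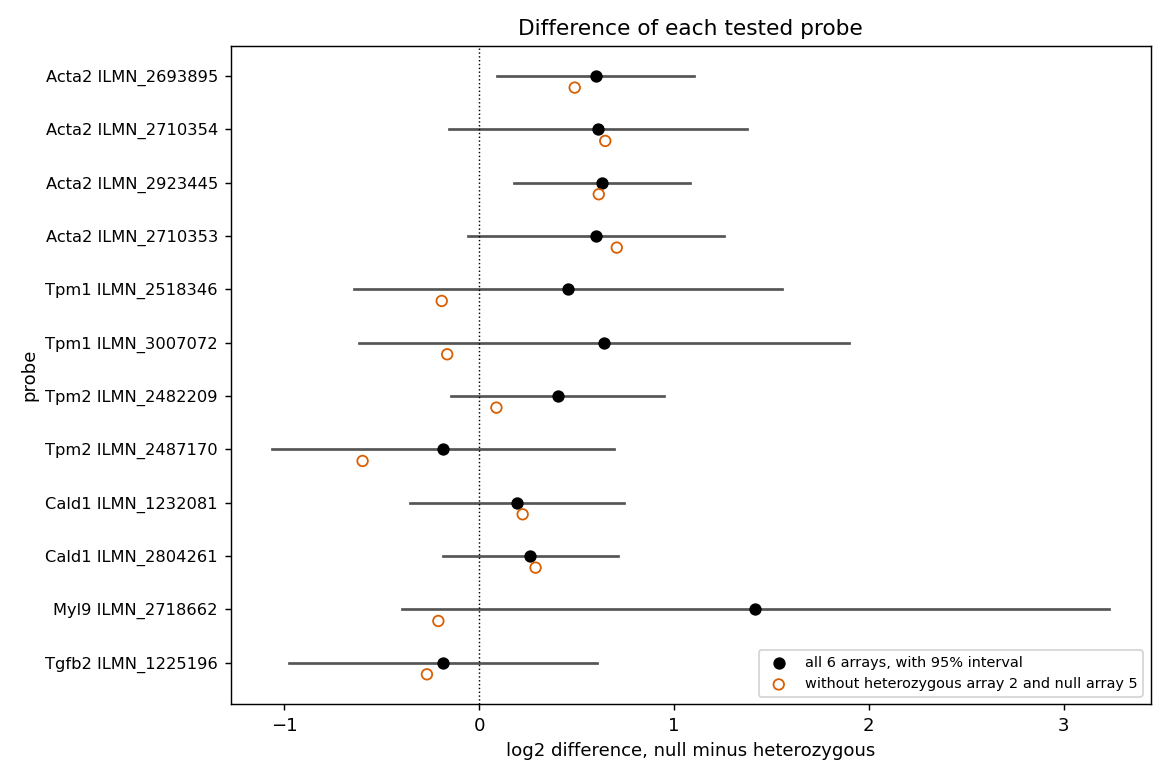
Log2 difference, null minus heterozygous, of the 12 tested member probes with its 95% interval (black) and the value without heterozygous array 2 and null array 5 (orange circles). The 4 Acta2 probes keep a difference of 0.49 to 0.71 without these arrays, while those of Tpm1 and Myl9 lie below 0.

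No gene on a list of other contractile and serum response factor genes passed the main test, and 1, Mylk, passed with array weights, which were lowest for null array 5 (0.516) and heterozygous array 2 (0.265). Of 35 listed genes, 33 had a probe and 21 were tested, of which 13 were higher and 8 lower and 0 passed in limma, with 2 at an unadjusted p under 0.05, a p that 8.7% of all probes reached. The median difference was 0.16, and was 0.05 without heterozygous array 2 and 0.03 without null array 5 as well. Mylk, the kinase that phosphorylates the myosin light chain, was at 7.56, 7.99 and 7.62 in null and at 8.32, 9.24 and 8.59 in heterozygous lenses. The groups did not overlap, and the difference was -0.99 ± 0.28 (limma, adjusted p = 0.285). With array weights it was -0.91 (limma, adjusted p = 0.0410), in a setting where 261 of all probes passed, beside 26 in the main test. Its other 2 tested probes differed by -0.58 ± 0.46 and -0.31 ± 0.26. Tpm3, a tropomyosin of many cells, was at 8.37, 8.70 and 8.39 in null and at 7.72, 8.14 and 7.66 in heterozygous lenses, a difference of 0.65 ± 0.22 (limma, adjusted p = 0.439). Its tested probe ILMN_2435584 differed by 0.38 ± 0.25 and the dimmer ILMN_2443164 by -0.87 ± 0.32, so the probes of Tpm3 disagreed in sign. Srf, the serum response factor itself, differed by 0.27 ± 0.24 (limma, adjusted p = 0.814), and its coactivators Myocd and Mkl1 were detected on no array.

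No regulator of the epithelial to mesenchymal change passed the main test either. Of 16 listed genes 9 were tested, 5 higher and 4 lower (median 0.00), and 0 passed, with 2 at an unadjusted p under 0.05, both higher in null, beside 4.27% of all probes. Zeb1, a repressor of epithelial genes, was at 9.24, 8.28 and 9.08 in null and at 8.10, 7.95 and 7.89 in heterozygous lenses, a difference of 0.89 ± 0.27 (limma, adjusted p = 0.355). It passed with array weights (adjusted p = 0.0251) and without heterozygous array 2 and null array 5 (adjusted p = 0.0388). Over all probes, 261 and 111 passed in these settings, beside 26 in the main test. S100a4, a calcium-binding protein of motile cells, was at 10.05, 10.10 and 10.41 in null and at 9.53, 9.92 and 9.33 in heterozygous lenses (0.60 ± 0.23, limma, adjusted p = 0.509). Zeb2 and Twist2 were detected on 6 of 6 arrays and differed by -0.07 ± 0.53 and -0.28 ± 0.34 (limma, adjusted p = 0.984 and 0.876). Snai1 was detected on 1 array, Twist1 on 2, and Snai2 and Foxc2 on none. Cdh1, the epithelial cadherin, differed by 0.06 ± 0.81, too imprecise to show equal levels.

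Ligands, receptors and SMADs of the TGF-beta pathway gave 10 higher and 5 lower of 15 tested genes of 20 listed (median 0.35), with 0 past the threshold and 0 at an unadjusted p under 0.05 in limma, a p that 8.7% of all probes reached. That median rested on single arrays, since leaving out heterozygous array 2 gave -0.02, leaving out null array 5 gave 0.10, and leaving out both gave -0.02. Tgfb3, another ligand, was at 7.81, 7.57 and 7.87 in null and at 7.89, 8.50 and 8.13 in heterozygous lenses. The groups did not overlap, and their means were apart by -0.42 ± 0.23 (limma, adjusted p = 0.658), a difference that was -0.26 without heterozygous array 2, -0.17 without null array 5 as well, and 0.01 after scaling arrays to 1 median. Ski, a repressor of SMAD activity, differed by 0.37 ± 0.24 (limma, adjusted p = 0.730), by 0.18 without null array 5 and by 0.11 without both arrays. Among targets and fibrotic matrix genes, 7 were higher and 7 lower of 14 tested of 29 listed (median 0.03, and -0.04 without heterozygous array 2), and 0 passed, with 1 at an unadjusted p under 0.05, lower in null, beside 4.44% of all probes. That was Bgn, the matrix proteoglycan biglycan, which was at 5.26, 6.48 and 4.86 in null and at 6.70, 7.09 and 7.55 in heterozygous lenses. Its difference was -1.58 ± 0.40 (limma, adjusted p = 0.242). Bgn passed with array weights (adjusted p = 0.00993) and without heterozygous array 2 and null array 5 (adjusted p = 0.0141). Over all probes, 261 and 111 passed in these settings, beside 26 in the main test. Mmp9, a matrix protease, differed by -0.51 ± 0.27 (limma, adjusted p = 0.648), and by -0.27 without heterozygous array 2.

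Genes whose values followed Acta2 most closely over the 6 arrays were Kctd10, Aldh3b1, Trnp1, Scd1 and Synpo, with Pearson r from 0.987 to 0.990 and Spearman rho from 0.943 to 1 against ILMN_2693895. These are the highest of the 12934 tested probes with 1 gene, members left out, and many high values are to be found among so many probes and so few arrays. Synpo encodes the actin-associated protein synaptopodin, and it was at 9.77, 9.81 and 10.09 in null and at 9.11, 8.70 and 9.21 in heterozygous lenses. Scd1, a fatty acid desaturase, differed by 1.72 ± 0.32 (limma, adjusted p = 0.0835), the widest of the 5 differences.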

How the data were processed

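Bead intensities of 6 mouse lens samples, 3 Tdrd7 null and 3 Tdrd7 heterozygous, came from the raw table deposited by the authors, on a linear scale without visible background subtraction. Per the file headers, each intensity has its own detection p-value column. Per the labels' protocols, RNA was extracted with a Qiagen RNeasy kit and labelled with the Illumina TotalPrep kit. For the scanner software and the making of the series matrix, the method is not given in the sources used. The raw columns name the group alone, so arrays carry no replicate number. In the authors' series matrix each column is 1 raw column multiplied and shifted. The matrix is therefore on a linear scale that grows with brightness, its centring is unknown, and its medians are 65.7, 66.2 and 64.8 for null replicates 1 to 3 and 65.4, 66.2 and 64.8 for heterozygous replicates 1 to 3.

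Intensities were processed with neqc in limma 3.58.1 (R 4.3.3), that is normexp background correction from detection p-values, an offset of 16, quantile normalization and log2. Differences of dim probes shrink toward 0 through the offset. Probes were kept where 3 or more arrays had a detection p below 0.05, and the 14902 kept were fitted with lmFit and eBayes, two-sided, with Benjamini-Hochberg adjustment and a threshold of 0.05. Genes came from the platform annotation, in which 34885 probes have 1 gene, 18 several and 10378 none. List genes were matched by symbol or RefSeq synonym (197 of 212 list entries had a probe) and are represented by the tested probe with the highest mean. From each list the genes past the threshold, or else the 2 with the smallest p, were named. Srf, Cdh1 and undetected genes were named outside this rule, after their values were seen. So were Actb, Actg2, Pdgfrb, Gja1, Zeb2, Twist1, Twist2, Snai1, Timp1, Tgfb1 and Vim. The members, lists and tests were chosen with earlier results of these data known. The fit was tested on simulated data.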

Additional observations from a re-analysis of the deposited data

How the results depend on the processing

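Over 16 alternatives, some in processing and some with arrays left out, 0 member probes passed in each, and 11 of 191 values of member probes changed direction. Settings that change only the filter or the variance model keep the main difference, so no direction could change in them. All values are log2 differences, null minus heterozygous. Member probes that changed direction were Tgfb2 after scaling to 1 median (0.25), without null array 5 (0.02) and without heterozygous array 1 (0.13). Tpm1 ILMN_2518346 turned with array weights (-0.18), without heterozygous array 2 (-0.22) and without heterozygous array 2 and null array 5 (-0.19). Tpm1 ILMN_3007072 turned in the last 2 of these settings (-0.15 and -0.16). Tpm2 ILMN_2487170 turned without null array 4 (0.03) and without heterozygous array 3 (0.13), and the mean of the 2 tested Tpm2 probes was 0.11. Myl9 turned without both arrays (-0.21). Apart from the members, the list gene Tgfb3 turned after scaling to 1 median (0.012). With single arrays left out, Tpm1 ILMN_3007072 ran from -0.15 to 1.08, Tpm1 ILMN_2518346 from -0.22 to 0.91, Tpm2 ILMN_2487170 from -0.65 to 0.13 and Tgfb2 from -0.48 to 0.13. The cause of these changes was not tested.

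The median difference of the 12 member probes ran from 0.23 to 0.58 when single arrays were left out, lowest without heterozygous array 2. With heterozygous array 2 and null array 5 both left out the median was 0.16, and 0.18 on the series matrix values, with and without the replicate block. The 26 probes past the threshold over all probes became 14 with no background correction and with an offset of 50, 3 after scaling to 1 median, 0 with no filter (2759 at an unadjusted p under 0.05), 261 with array weights, 111 without both arrays and 2 to 30 when single arrays were left out. On the series matrix values 0 passed without the replicate block and 0 with it, with 1058 and 1307 at an unadjusted p under 0.05 in limma. The main fit did not pair samples by the replicate numbers of the labels. Deviations of same-numbered samples correlated at -0.01, 0.25 and 0.57, and those of differently numbered samples at -0.38 to 0.07. Heterozygous array 2 and null array 5 both matched replicate 2 of their group in the series matrix. Whether same-numbered samples share an effect was not tested. Dim probes near background limit what can be shown for Cald1, Tpm2, Tgfbi and Fn1.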

Other observations

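The 5 tested probes of Actb did not move together. Probes ILMN_2846865 and ILMN_2588055 were at 7.71, 6.66 and 9.97 and at 7.59, 6.61 and 9.74 on null arrays 4, 5 and 6, and at 8.81, 9.86 and 9.98 and at 8.55, 9.76 and 9.73 on heterozygous arrays 1, 2 and 3. Their differences were -1.44 ± 0.71 and -1.36 ± 0.69, while the other 3 Actb probes differed by 0.10 to 0.41. None of the 5 passed in limma (adjusted p from 0.618 to 0.941).

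Timp1, an inhibitor of matrix proteases, was at 5.75, 7.47 and 6.40 on null arrays 4, 5 and 6 and at 6.17, 5.33 and 6.15 on heterozygous arrays 1, 2 and 3. It was highest on null array 5 and lowest on heterozygous array 2, as Myl9 was, and its difference was 0.66 ± 0.42 (limma, adjusted p = 0.730). Tgfb1, a TGF-beta ligand made by many cell types, was at 6.19, 7.26 and 6.16 in null and at 6.06, 6.19 and 6.00 in heterozygous lenses (0.45 ± 0.31, limma, adjusted p = 0.741). Vim, the vimentin of lens and mesenchymal cells, was at 12.05, 12.49 and 12.39 in null and at 12.05, 11.85 and 11.97 in heterozygous lenses (0.35 ± 0.21, limma, adjusted p = 0.700). Timp1, Tgfb1 and Vim were named outside the rule for list genes. Their lists gave 7 higher and 7 lower, 10 higher and 5 lower, and 5 higher and 4 lower, with 0 passed in each.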
